A study of Mus musculus with 56 samples.

Results

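The genes described here are Thy1 and 5 further mesenchymal surface genes, Cd44, Icam1, Vcam1, Pdgfra and Pdgfrb. They were chosen by name, with earlier results of these data known. They were then looked up in 3 deposited expression tables from mouse fibroblasts undergoing reprogramming to pluripotency. The table of sorted cells listed 6 of the 6 among 13451 genes, the day 10 overexpression table listed 4 of them among 12935 genes, and the table of a pluripotent cell and a fibroblast library listed 6 among 13861 genes. Pdgfra and Pdgfrb in the day 10 overexpression libraries were not analysed here.

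The cells were OG2-MEFs, mouse embryonic fibroblasts (MEFs) with an Oct4-GFP reporter, whose GFP marks cells in which the Oct4 reporter has become active. For the sorted cells, OSKM (Oct4, Sox2, Klf4 and Myc on 1 polycistronic construct) was carried by an inducible lentivirus together with rtTA and switched on with doxycycline, and cells received either Ctcf shRNA (shCTCF) or a control shRNA (shLuci). Both shRNA groups were collected at D0, as SSEA1+, SSEA1-Thy1- and Thy1+ cells at D3, D6 and D9, and as GFP+ cells at D12, with 2 libraries in each of 22 groups. The unsorted D10 cells received OSKM by retrovirus with oeCTCF, with oeCTCF&shSmarca5 or with oecontrol, 2 libraries each. In both systems the cells were kept in medium with vitamin C, and the D10 CTCF construct was a retroviral pMXs vector. One iPSC library and one MEF library formed the remaining table, the iPSCs having been grown with leukemia inhibitory factor and inhibitors of MEK and GSK3. The labels do not say whether paired libraries came from separate cultures, so p-values measure only the spread between these samples, which may be technical.

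THY1 is a small glycoprotein anchored in the outer membrane of fibroblasts, neurons and, in mice, T cells, and its loss from the surface is a standard early sign that a fibroblast has begun to reprogram. SSEA1, a sugar epitope, is gained by cells on the way to pluripotency. CD44 is the main receptor for the matrix sugar hyaluronan, ICAM1 and VCAM1 are adhesion ligands bound by leukocyte integrins and inducible by NF-kB signalling, and PDGFRA and PDGFRB are the receptor tyrosine kinases for platelet-derived growth factors in mesenchymal cells.

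In the GRCm38 assembly Thy1 (ENSMUSG00000032011) lies on chromosome 9 from 44043384 to 44048579 on the plus strand. Icam1 (ENSMUSG00000037405) lies on the same chromosome from 21015985 to 21028817, also on the plus strand. Cd44 (ENSMUSG00000005087) lies on chromosome 2 from 102811141 to 102901665 on the minus strand, and Vcam1 (ENSMUSG00000027962) on chromosome 3 from 116109949 to 116129688 on the minus strand. Pdgfra (ENSMUSG00000029231) lies on chromosome 5 from 75152292 to 75198215 and Pdgfrb (ENSMUSG00000024620) on chromosome 18 from 61045150 to 61085061, both on the plus strand. The 6 genes are protein coding. Annotated antisense genes overlap Icam1, Vcam1 and Pdgfra, and without stranded counting, which the sources used here do not state, their reads cannot be told apart from those of the 3 genes.

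Levels in the sorted and day 10 tables are scores, whole numbers that the authors had normalized by a method not stated, so sequencing depth is unknown. Library totals over all rows, repeats included, were nearly equal, at 31777102 to 31798964 and 19465402 to 19479768. Over genes alone they were 26119844 to 28981763 and 18206150 to 18403408. Identical high scores recurred between libraries: Smarca5 scored 117724 in both D12 GFP+ Ctcf shRNA libraries and in the first D6 SSEA1-Thy1- Ctcf shRNA library. Scores of different genes are not corrected for transcript length and are compared here only within a gene. Ctcf itself was lower with Ctcf shRNA in each of the 11 populations, with 520 and 616 at D0 against 790 and 830 with the control shRNA, and with 674 and 698 in D12 GFP+ cells against 2381 and 2441. Of the markers used to check the cell labels, 10 of 10 fibroblast genes were measured, and their summed score was 8738 to 9315 in D6 SSEA1+ control cells and 264573 to 292269 in D0 control cells. The sum of 8 of 8 pluripotency genes was 38924 to 39616 in D12 GFP+ and 8 to 9 in D0 control cells. At D0, 7 macrophage genes summed to 9827 to 12078 with Ctcf shRNA and 6657 to 8046 with control shRNA, against 332 to 1627 in the later populations. Of 7 T cell genes only Lck was found, at 2 to 135.

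The SSEA1-Thy1- label refers to surface protein, and at D9 it did not go with low Thy1 RNA. Thy1 scored 2825 and 3200 in the D9 SSEA1-Thy1- control cells, a range that spans the 3070 and 3172 of D0. Results of the D9 gates are therefore given beside those of D3 and D6, which do not use these libraries.

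Thy1 RNA followed the Thy1 gate at D3 and D6 and was highest at D9 within each gate. In SSEA1+ control cells Thy1 scored 216 and 202 at D3, 81 and 119 at D6, and 1290 and 1393 at D9. In SSEA1-Thy1- cells it scored 248 and 252 at D3, 208 and 208 at D6, and 2825 and 3200 at D9. In Thy1+ cells it scored 3504 and 4287 at D3, 5888 and 5800 at D6, and 9549 and 11346 at D9, after 3172 and 3070 in the cells of D0. The Thy1-negative populations thus lay far below the Thy1+ cells each day, and in both of them D9 lay above D6 with no overlap. D12 GFP+ cells stood at 559 and 672. Over the 11 control populations the means of Thy1 spanned a ratio of 104, with D9 Thy1+ cells highest and D6 SSEA1+ cells lowest. Ordered by mean, the only neighbours whose libraries overlapped were D0 with D9 SSEA1-Thy1- and D3 SSEA1+ with D6 SSEA1-Thy1-. Differences in Thy1 between gates are descriptions, because Thy1 protein set the gates. Less Thy1 RNA in a sorted pool, like any difference in these bulk libraries, can mean fewer cells of a type or less RNA per cell, and the 2 cannot be told apart.

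**Figure D1:**
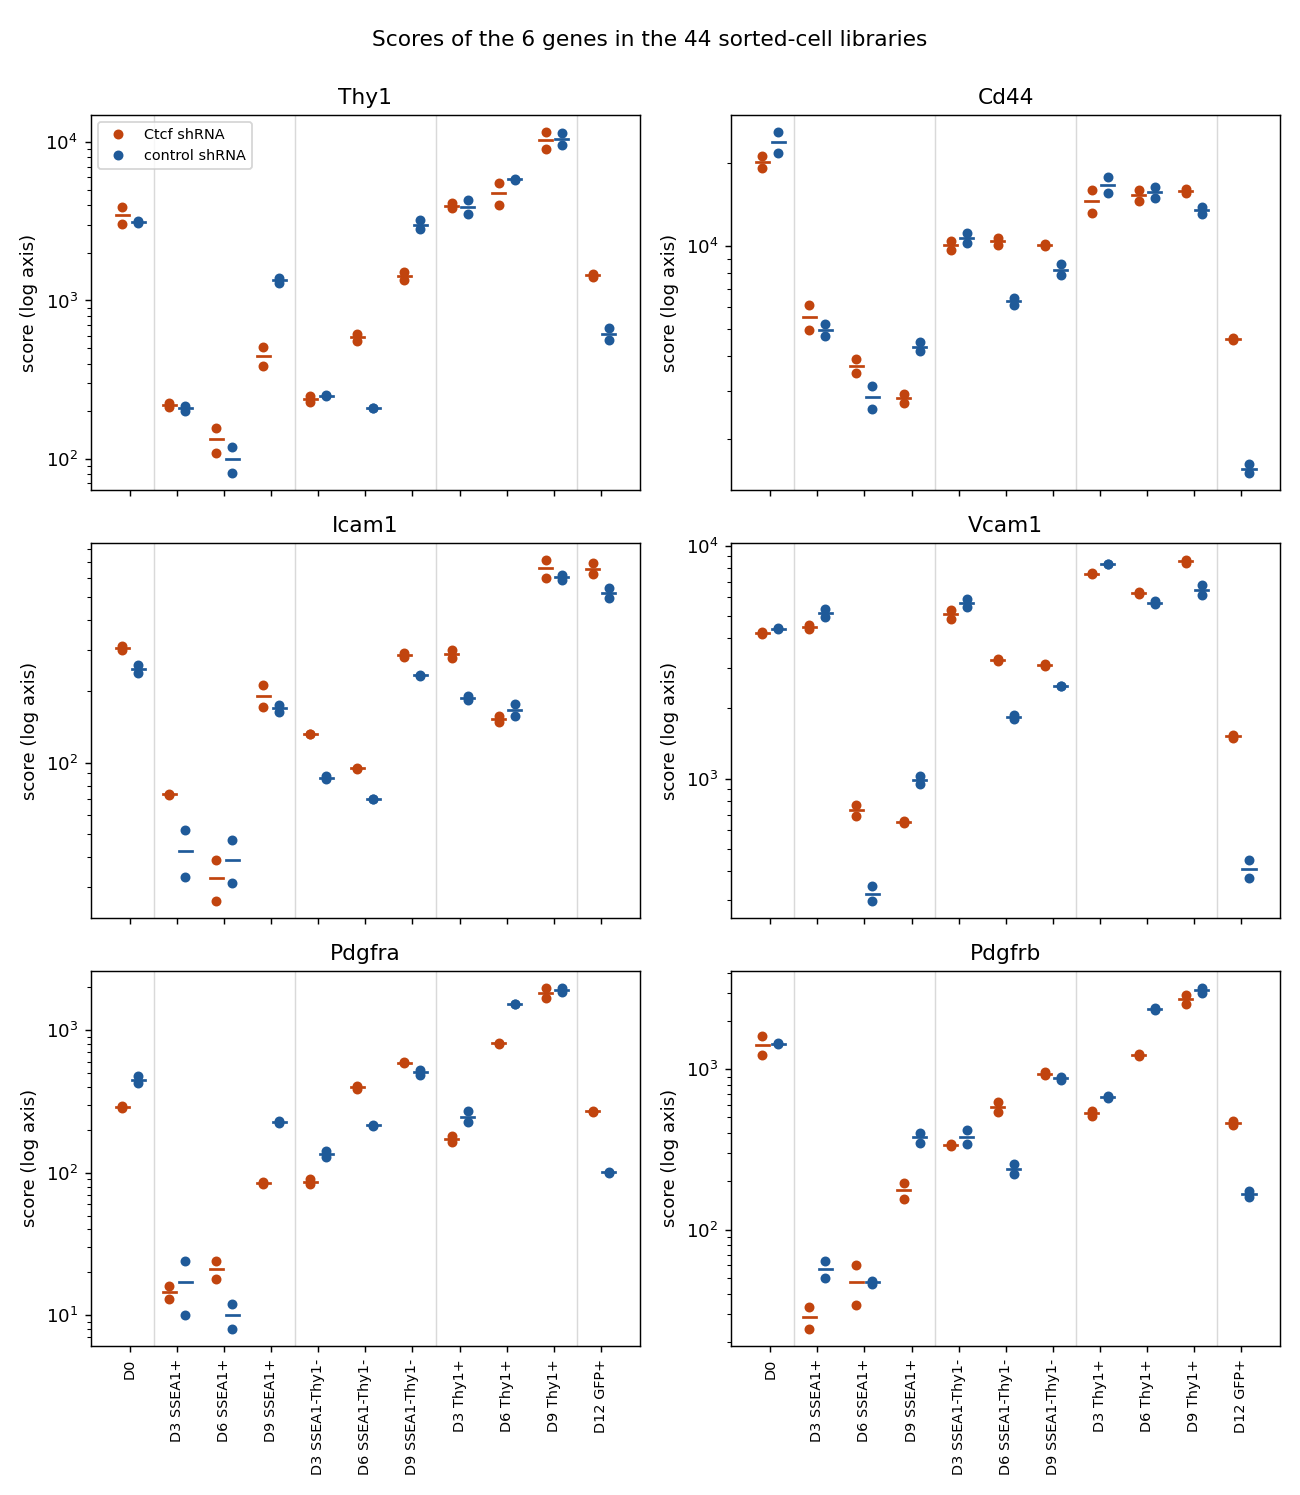
Scores of the 6 genes (log axis) in the 44 sorted-cell libraries, by population from D0 to D12 GFP+. Points are libraries, short lines are means of 2, and colour gives the shRNA. Thy1 lies at 81 and 119 in control D6 SSEA1+ cells and at 5888 and 5800 in control D6 Thy1+ cells, while Icam1 in control D12 GFP+ cells, at 496 and 544, lies above its 258 and 240 at D0.

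Cd44, the hyaluronan receptor gene, was highest in the starting fibroblasts and lower in each later population, with the lowest mean in D12 GFP+ cells. Control cells scored 25824 and 21660 at D0. SSEA1+ cells scored 5232 and 4716 at D3, 3114 and 2585 at D6, and 4174 and 4490 at D9. SSEA1-Thy1- cells scored 11158 and 10221, 6496 and 6126, and 7839 and 8580 on the same 3 days. Both gates lay below the Thy1+ cells on each day. Thy1+ cells scored 17788 and 15528, then 16348 and 14907, then 13081 and 13862, below both D0 libraries, and their D3 and D6 values overlapped. D12 GFP+ cells were lowest, at 1508 and 1630, and D0 stood at 15.1 times their mean.

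Icam1, an adhesion ligand, had another order: D9 Thy1+ cells were highest and D12 GFP+ cells second. Control cells scored 258 and 240 at D0. SSEA1+ cells scored 33 and 52 at D3, 31 and 47 at D6, and 164 and 175 at D9, and SSEA1-Thy1- cells scored 88 and 85, 70 and 70, and 235 and 232. Thy1+ cells scored 191 and 184, 158 and 177, and 618 and 592 on the same days. Within each gate, both D9 libraries lay above the D3 and D6 ones. D12 GFP+ cells scored 496 and 544, so that Icam1 alone among the 6 genes ended above its D0 level. Overlapping neighbours in the order were D9 SSEA1+ with D6 Thy1+ and D3 SSEA1+ with D6 SSEA1+, the lowest pair.

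Vcam1, the second integrin ligand, was higher at D3 than at D0 in all 3 gates before it fell outside the Thy1+ gate. Control cells scored 4378 and 4418 at D0. SSEA1+ cells scored 4964 and 5332 at D3, 297 and 344 at D6, and 1023 and 945 at D9, and SSEA1-Thy1- cells 5459 and 5906, 1866 and 1809, and 2499 and 2506. Thy1+ cells scored 8392 and 8363, 5616 and 5798, and 6126 and 6770, above D0 on each day. D12 GFP+ cells scored 446 and 374, next to lowest. Only D6 Thy1+ and D3 SSEA1-Thy1- cells overlapped among neighbours in the order, whose ends differed 26.1-fold.

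Pdgfra and Pdgfrb, the PDGF receptor genes, dipped at D3 and rose in the Thy1+ gate at D6, while they stayed low in SSEA1+ cells until D9. Pdgfra scored 424 and 474 in D0 control cells. In SSEA1+ cells it scored 10 and 24 at D3, 8 and 12 at D6, and 224 and 229 at D9. In SSEA1-Thy1- cells it scored 128 and 142, 214 and 218, and 528 and 488. The D9 SSEA1-Thy1- cells were the only population outside the Thy1+ gate with both scores above those of D0 (log2 difference 0.18 ± 0.21, adjusted p = 0.469). In Thy1+ cells Pdgfra scored 226 and 270, 1538 and 1537, and 1844 and 1972, and D12 GFP+ cells scored 100 and 102. The highest mean was 190.8 times the lowest, the widest span of the 6 genes in control cells, and the low end rests on scores of 24 or less. Overlapping neighbours were D3 Thy1+ with D9 SSEA1+ and D3 SSEA1+ with D6 SSEA1+.

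Pdgfrb scored 1438 and 1450 in control cells at D0. SSEA1+ cells scored 50 and 64 at D3, 48 and 46 at D6, and 348 and 403 at D9, and SSEA1-Thy1- cells 342 and 415, 255 and 222, and 900 and 856. Thy1+ cells scored 678 and 660, 2352 and 2404, and 2984 and 3221, and D12 GFP+ cells scored 159 and 173. Its order matched that of Pdgfra at the top, D9 then D6 Thy1+ cells, and at the bottom, D3 then D6 SSEA1+ cells. Only D3 SSEA1-Thy1- and D9 SSEA1+ overlapped among its neighbours.

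In control cells, SSEA1+ cells had less of the 5 genes other than Thy1 than Thy1+ cells of the same day, in 15 of 15 tests. The tests used limma on log2(score + 1) with Benjamini-Hochberg adjustment over all 13451 genes, a gene being called at an adjusted p below 0.05. At D6, the day of the widest gap for 4 of the 5 genes, the log2 difference was -7.15 ± 0.21 (SE, 2 libraries each) for Pdgfra (adjusted p = 6.17e-21) and -5.63 ± 0.18 for Pdgfrb (adjusted p = 1.92e-20). It was -4.15 ± 0.07 for Vcam1 (adjusted p = 1.57e-25), -2.46 ± 0.11 for Cd44 (adjusted p = 2.66e-17) and -2.10 ± 0.17 for Icam1 (adjusted p = 2.12e-11). The D3 and D9 differences were -3.90 and -3.07 for Pdgfra, -3.54 and -3.05 for Pdgfrb, -0.70 and -2.71 for Vcam1, -1.74 and -1.64 for Cd44, and -2.15 and -1.83 for Icam1. Of all genes, 28.8% were called lower in SSEA1+ cells at D3, 33.8% at D6 and 30.0% at D9. The median over all genes at D6 was 0.15, so relative to it the 5 genes lay slightly lower still. The summed fibroblast markers moved in the same direction, at 8738 to 9315 in D6 SSEA1+ cells against 324885 to 343171 in D6 Thy1+ cells, and their part in the result was not tested. A single library moved the Pdgfra value in SSEA1+ cells: at D3 the difference was -3.31 without the library of score 10 and -4.49 without that of score 24.

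SSEA1-Thy1- cells also had less of the 5 genes than Thy1+ cells on each day, again in 15 of 15 tests, with 14.4%, 29.3% and 24.4% of all genes called lower at D3, D6 and D9. The log2 differences ran from -0.56 for Vcam1 to -1.11 for Icam1 at D3 and from -1.24 for Icam1 to -3.32 for Pdgfrb at D6. At D9 they ran from -0.72 for Cd44 to -1.91 for Pdgfra. The fibroblast markers moved in the same direction and their part was not tested: in SSEA1-Thy1- against Thy1+ cells they summed to 94920 to 103311 against 177329 to 200459 at D3, 54443 to 55848 against 324885 to 343171 at D6, and 171037 to 176347 against 470053 to 516768 at D9. Between the Thy1-negative gates, SSEA1+ cells were lower than SSEA1-Thy1- cells in 13 of 15 tests, against 20.9%, 21.6% and 15.5% of all genes called lower at D3, D6 and D9. The largest of these differences was that of Pdgfra at D6, -4.33 ± 0.21 (adjusted p = 2.57e-15). The D3 difference of Vcam1 was -0.14 ± 0.07 (adjusted p = 0.122) and the D9 difference of Icam1 was -0.46 ± 0.17 (adjusted p = 0.0507), and neither was called. Vcam1 was called after scaling by median ratios (adjusted p = 0.0444), and Icam1 under 7 other settings (adjusted p from 0.0250 to 0.0498). Thy1, given without a test, scored 216 and 202 in D3 SSEA1+ cells against 248 and 252 in D3 SSEA1-Thy1- cells, and its D6 and D9 scores above also lay lower in the SSEA1+ cells.

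Measured against D0, the day 3 changes were shared across the gates in direction. In D3 Thy1+ cells 4 of 5 genes were called (42.3% of all genes were called either way): Vcam1 rose by 0.93 ± 0.07 on the log2 scale, and Pdgfrb (-1.11), Pdgfra (-0.86) and Cd44 (-0.51) fell. Icam1 differed by -0.41 ± 0.17 (adjusted p = 0.0621), and was called under 3 other settings (adjusted p from 0.0293 to 0.0390). In D3 SSEA1-Thy1- cells (57.5% of all genes called) and D3 SSEA1+ cells (72.2%) 5 of 5 were called, with Vcam1 higher, by 0.37 and 0.23, and the other 4 lower. The fall was deepest in SSEA1+ cells, where Pdgfra differed from D0 by -4.76, Pdgfrb by -4.65, Icam1 by -2.56 and Cd44 by -2.25. The Vcam1 rise in SSEA1+ cells was no longer called without the second D3 SSEA1+ library (adjusted p = 0.0938) or after scaling by median ratios (0.15, adjusted p = 0.0723).

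By D6 the gates had parted. In D6 Thy1+ cells Pdgfra (1.78), Pdgfrb (0.72) and Vcam1 (0.38) were above D0 and Cd44 (-0.60) and Icam1 (-0.57) below it, 5 of 5 called against 60.9% of all genes. The Icam1 call was lost without the first D6 library (adjusted p = 0.0597). In D6 SSEA1-Thy1- and D6 SSEA1+ cells 5 of 5 were lower than D0, with 32.8% and 35.0% of all genes lower. Vcam1 in SSEA1+ cells stood at -3.78 ± 0.07 (adjusted p = 4.85e-25), having been above D0 at D3. At D9, 4 of 5 genes in Thy1+ cells were higher than D0, Pdgfra by 2.09, Icam1 by 1.28, Pdgfrb by 1.10 and Vcam1 by 0.55, and Cd44 was lower by 0.81 (64.8% of all genes called either way). D9 SSEA1-Thy1- cells had 3 of 5 lower, Cd44, Vcam1 and Pdgfrb (34.0% of all genes lower), and D9 SSEA1+ cells 5 of 5 (36.1%).

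Followed day by day within a gate, the Thy1-negative cells lost some of these RNAs between D3 and D6, and all 6 rose from D6 to D9. From D3 to D6, SSEA1+ cells lost Vcam1 (log2 difference -4.00 ± 0.07), Thy1 (-1.08 ± 0.18), Cd44 (-0.81 ± 0.11) and Pdgfra (-0.62 ± 0.21), 4 of 6 called lower against 25.0% of all genes. The Pdgfra step was lost without the second D3 library (-0.02, adjusted p = 0.934) or the first D6 library (-0.35, adjusted p = 0.279). From D6 to D9 all 6 genes rose in SSEA1+ cells, against 22.5% of all genes called higher: Pdgfra by 4.39 ± 0.21 (adjusted p = 1.45e-15), Thy1 by 3.76 ± 0.18 (adjusted p = 7.39e-16), Pdgfrb by 2.97, Icam1 by 2.12, Vcam1 by 1.62 and Cd44 by 0.61. Those D9 libraries lay above both D6 libraries for each gene. The fibroblast marker sum of the same cells was 72376 to 73226 at D9 and 8738 to 9315 at D6, and its part in the rise was not tested.

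The SSEA1-Thy1- cells showed the same D9 step, with 6 of 6 genes higher than at D6 (16.3% of all genes higher), Thy1 by 3.85 ± 0.18 (adjusted p = 3.04e-15), Pdgfrb by 1.88, Icam1 by 1.72, Pdgfra by 1.23, Vcam1 by 0.45 and Cd44 by 0.38. The fibroblast markers of these cells summed to 171037 to 176347 at D9 and 54443 to 55848 at D6, 10 of 10 called higher, and their part was not tested. The Cd44 step was lost without the second library of D6 (adjusted p = 0.0683) or of D9 (adjusted p = 0.0875). Between D3 and D6 these cells lost Vcam1 (-1.63), Cd44 (-0.76) and Pdgfrb (-0.66) and gained Pdgfra (0.68), 4 of 6 called against 44.6% of all genes. The Pdgfra gain was lost without the first D3 library (adjusted p = 0.0794) or the second D6 library (adjusted p = 0.0555), and the Pdgfrb loss without the second D3 library (adjusted p = 0.0624). In Thy1+ cells Pdgfra (2.63), Pdgfrb (1.83) and Thy1 (0.59) rose and Vcam1 fell (-0.55) from D3 to D6, with 46.0% of all genes called. The Thy1 step was lost without the first D3 library (0.45, adjusted p = 0.101). From D6 to D9 only Icam1 (1.85 ± 0.17, adjusted p = 1.07e-08) and Thy1 (0.83 ± 0.18, adjusted p = 0.000885) were called higher in Thy1+ cells, 2 of 6 against 10.8% of all genes. With only the groups compared in the fit, Pdgfra (0.31, adjusted p = 0.0245) and Pdgfrb (0.38, adjusted p = 0.0144) were called too, and so was Vcam1 after scaling by median ratios (0.22, adjusted p = 0.0276).

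D12 GFP+ cells had lost 5 of the 6 RNAs and gained Icam1. Against D0 the log2 differences were -3.91 ± 0.11 for Cd44 (adjusted p = 7.95e-22), -3.43 ± 0.07 for Vcam1 (adjusted p = 5.26e-24), -3.11 ± 0.18 for Pdgfrb (adjusted p = 5.61e-15), -2.35 ± 0.18 for Thy1 (adjusted p = 2.10e-12) and -2.14 ± 0.21 for Pdgfra (adjusted p = 6.18e-10). Icam1 differed by 1.06 ± 0.17 (adjusted p = 3.87e-06), and 80.2% of all genes were called either way. The fibroblast markers summed to 44603 to 48340 in these cells against 264573 to 292269 at D0, and their part was not tested. Against D9 SSEA1+ cells, Icam1 was higher by 1.61 ± 0.17 (adjusted p = 1.32e-08) and Cd44, Vcam1, Pdgfrb and Pdgfra were lower by 1.16 to 1.46, 5 of 5 tested genes called against 59.1% of all genes.

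The iPSC and MEF libraries, counted separately by the authors on another genome build (mm9), gave the same 2 directions. With 1 library each, of 9912018 and 16593659 counts, these differences have no replicate check and no test, and intervals are exact Poisson or conditional exact ones at 95% that cover counting error only. Icam1 had 2229 counts in the iPSC library (224.9 CPM, counts scaled to the library total) and 157 in the MEF library (9.46 CPM), a log2 ratio on CPM + 1 of 4.43 with an interval of 4.34 to 4.81. The iPSC value was the higher of the 2 for no other gene of the 6. Thy1 had 428 counts in the iPSC library against 6302 in the MEF library (log2 ratio -3.11, interval -3.281 to -2.995). Pdgfrb had 328 against 6188 (-3.46, -3.66 to -3.33) and Pdgfra 64 against 1060 (-3.12, -3.69 to -2.94). Vcam1 had 201 against 2736 (-2.96) and Cd44 had 778 against 5964 (-2.18). At least 8-fold differences were found for 4 of 6 genes, Icam1, Pdgfrb, Pdgfra and Thy1, and for 9.68% of all genes. Vcam1 fell just short of 8-fold.

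**Figure D2:**
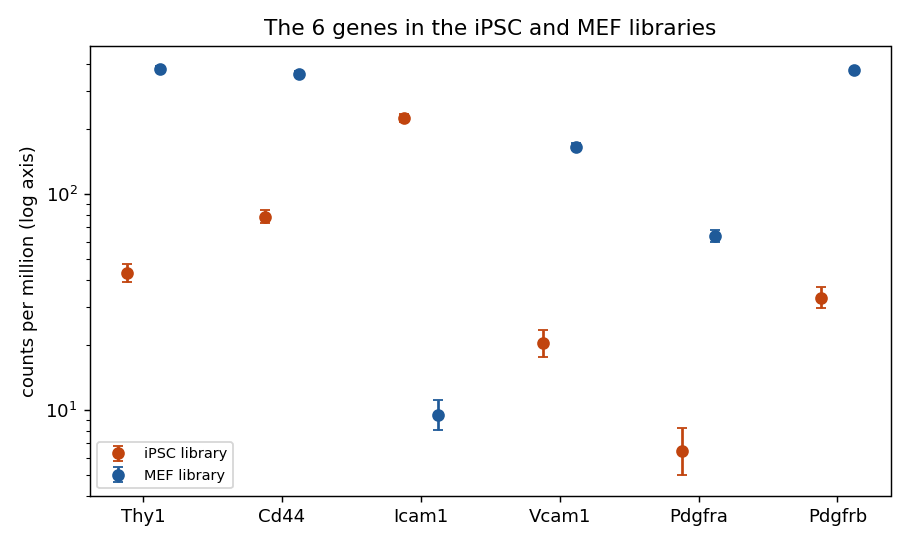
CPM (log axis) of the 6 genes in the iPSC library and the MEF library, with exact Poisson intervals at 95% that cover counting error only. Icam1, at 224.9 in the iPSC library and 9.46 in the MEF library, is the one gene that is higher in the iPSCs.

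Because Icam1 alone went up at the end of reprogramming, its promoter is shown beside those of 2 genes that went down. The sequences, from RefSeq (GRCm38.p6), run 5′ to 3′ on the gene's strand from 250 bases before to 50 bases after the start. Cd44 is at chr2:102901616-102901915 on the minus strand, Icam1 at chr9:21015690-21015989 and Pdgfra at chr5:75152001-75152300, both on the plus strand. Capitals mark matches, on either strand, to the motifs searched. These were the TATA box, as TATAAA, which helps to position transcription starts. They were also the GC box bound by Sp1 family factors, as GGGCGG, and the AP-1 motif bound by Fos and Jun proteins, as TGANTCA. The last were an NF-kB motif, as GGAAATTCC, and the core of the CTCF motif, as GGNGGCAG.
Cd44: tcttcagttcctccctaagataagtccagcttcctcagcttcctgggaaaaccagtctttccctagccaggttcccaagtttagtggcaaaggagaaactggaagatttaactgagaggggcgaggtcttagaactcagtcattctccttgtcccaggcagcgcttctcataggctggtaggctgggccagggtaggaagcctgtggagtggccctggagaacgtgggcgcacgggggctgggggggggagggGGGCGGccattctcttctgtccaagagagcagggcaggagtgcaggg
Icam1: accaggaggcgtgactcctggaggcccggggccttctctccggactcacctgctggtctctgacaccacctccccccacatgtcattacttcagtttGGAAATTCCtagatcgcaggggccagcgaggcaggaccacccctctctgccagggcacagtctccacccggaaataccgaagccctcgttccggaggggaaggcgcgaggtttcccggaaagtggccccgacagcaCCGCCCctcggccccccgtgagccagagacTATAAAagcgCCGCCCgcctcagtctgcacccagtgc
Pdgfra: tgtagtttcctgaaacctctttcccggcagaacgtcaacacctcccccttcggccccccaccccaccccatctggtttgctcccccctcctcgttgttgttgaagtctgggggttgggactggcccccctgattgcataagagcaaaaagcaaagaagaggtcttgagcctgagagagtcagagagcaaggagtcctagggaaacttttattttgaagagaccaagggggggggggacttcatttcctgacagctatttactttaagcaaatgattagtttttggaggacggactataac

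The Icam1 window held 1 GGAAATTCC, 1 TATAAA and 2 GC boxes, none overlapping, and had 64.7% G or C and 19 CG dinucleotides. Among 32851 mouse promoter windows of the same length, GGAAATTCC was found in 0.317%, TATAAA in 13.6% and the GC box in 35.7%. GGAAATTCC is 1 fixed string, so its share does not measure how rare NF-kB motifs are. The motifs were not part of the planned comparisons, and the match in Icam1 is a description only. The Cd44 window held 1 GC box, beginning at +3, with 58% G or C and 6 CG dinucleotides. The Pdgfra window held none of the 5 motifs, with 51% G or C and 5 CG dinucleotides, and the medians over all promoters were 52.7% and 7. The AP-1 motif occurred in 7.81% and the CTCF core in 12.6% of promoters, and neither was in the 3 windows. A match is a string of letters and does not show that a factor binds there. Thy1 and Vcam1 have no entry in the promoter table. The promoter of Pdgfrb, another gene that went down, was left out by choice and not searched, so the genes shown are not the full set.

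The central comparison of the sorted cells asked what Ctcf shRNA changed within a population. Of 66 tests, 6 genes in 11 populations, 29 were called, 20 with a higher and 9 with a lower score in Ctcf shRNA cells. Depending on the population, 1.46% to 24.6% of all genes were called higher and 2.54% to 24.7% lower. The direction depended on the population: 6 of 6 genes rose in D6 SSEA1-Thy1- cells and 5 of 6 in D12 GFP+ cells, and 5 of 6 fell in D9 SSEA1+ cells, Icam1 being the gene not called in the last 2 populations. Of all genes, 20.2% were called higher in D6 SSEA1-Thy1- cells, 24.6% higher in D12 GFP+ cells and 9.04% lower in D9 SSEA1+ cells. At D0 none of the 6 was called by limma (6.68% of all genes called), with 2 of 6 at an unadjusted p below 0.05. Pdgfra was nearest at D0, with scores of 296 and 286 with Ctcf shRNA against 424 and 474 with control shRNA (log2 difference -0.62 ± 0.21, adjusted p = 0.0762), and it was called with a pseudocount of 8 (adjusted p = 0.0218) or quantile normalization (adjusted p = 0.0243).

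In D12 GFP+ cells 5 of 6 genes were higher with Ctcf shRNA, against 24.6% of all genes. Vcam1 scored 1546 and 1498 with Ctcf shRNA against 446 and 374 with control shRNA (log2 difference 1.90 ± 0.07, adjusted p = 2.12e-16). Cd44 scored 4662 and 4592 against 1508 and 1630 (1.56 ± 0.11, adjusted p = 5.36e-12). Both libraries with Ctcf shRNA lay above both controls for these genes and for the next 3. Pdgfrb scored 446 and 478 against 159 and 173 (1.47 ± 0.18, adjusted p = 1.39e-07). Pdgfra scored 268 and 273 against 100 and 102 (1.41 ± 0.21, adjusted p = 4.73e-06), and Thy1 scored 1412 and 1470 against 559 and 672 (1.23 ± 0.18, adjusted p = 2.25e-06). The exception was Icam1, the gene that control cells had gained by this stage: it scored 624 and 694 against 496 and 544 (0.34 ± 0.17, adjusted p = 0.106). Fitting the 4 D12 libraries alone called it (adjusted p = 0.0177).

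Markers of fibroblasts moved with the 5 genes at D12. The 10 fibroblast markers summed to 132239 to 133084 with Ctcf shRNA and 44603 to 48340 with control shRNA, and 9 of 10 were called higher (median log2 difference 1.43). The 8 pluripotency markers summed to 23053 to 23191 with Ctcf shRNA and 38924 to 39616 with control shRNA, with a median log2 difference of -0.77. By limma 0 of the 8 were called in either direction, with 1 of 8 at an unadjusted p below 0.05. The 6 measured pericyte and smooth muscle markers, a lineage in which Pdgfrb is also used as a marker, summed to 10279 to 10310 and 3655 to 3691 in the same order. The part of these markers in the gene differences was not tested.

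In D6 SSEA1-Thy1- cells 6 of 6 genes were called higher with Ctcf shRNA, against 20.2% of all genes. Thy1 scored 558 and 611 with Ctcf shRNA against 208 and 208 with control shRNA (log2 difference 1.48 ± 0.18, adjusted p = 2.00e-07), in cells gated as negative for its protein. Pdgfrb scored 544 and 625 against 255 and 222 (1.29 ± 0.18, adjusted p = 1.89e-06) and Pdgfra 408 and 388 against 214 and 218 (0.88 ± 0.21, adjusted p = 0.00161). The receptor genes did not overlap between shRNAs, nor did the adhesion genes. Vcam1 scored 3270 and 3200 against 1866 and 1809 (0.82 ± 0.07, adjusted p = 2.33e-09), and Cd44 10120 and 10645 against 6496 and 6126 (0.72 ± 0.11, adjusted p = 6.85e-06). Icam1 scored 94 and 95 against 70 and 70 (0.43 ± 0.17, adjusted p = 0.04998, just under the threshold), and its call was lost without any 1 of the 4 libraries (adjusted p from 0.130 to 0.143). The fibroblast markers summed to 130727 to 131965 with Ctcf shRNA and 54443 to 55848 with control shRNA (9 of 10 called higher, 1 lower), and the pluripotency markers to 148 to 149 and 497 to 514 (5 of 8 called lower). Their part was not tested.

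In D9 SSEA1+ cells the change was the opposite, 5 of 6 genes being lower with Ctcf shRNA against 9.04% of all genes. Thy1 scored 388 and 505 with Ctcf shRNA against 1290 and 1393 with control shRNA (log2 difference -1.60 ± 0.18, adjusted p = 2.33e-07). Pdgfra scored 86 and 84 against 224 and 229 (-1.40 ± 0.21, adjusted p = 3.04e-05), and Pdgfrb 156 and 196 against 348 and 403 (-1.09 ± 0.18, adjusted p = 7.51e-05). For these and the next 2 genes both Ctcf shRNA libraries lay below both controls. Cd44 scored 2719 and 2924 against 4174 and 4490 (-0.62 ± 0.11, adjusted p = 0.000191), and Vcam1 659 and 646 against 1023 and 945 (-0.59 ± 0.07, adjusted p = 1.92e-06). Icam1, at 171 and 213 against 164 and 175, overlapped between the shRNAs (0.17 ± 0.17, adjusted p = 0.620). The fibroblast markers summed to 34443 to 41152 with Ctcf shRNA and 72376 to 73226 with control shRNA, 9 of 10 called lower. The pluripotency markers summed to 6586 to 6890 and 5093 to 5249 (0 of 8 called by limma or at an unadjusted p below 0.05), and the part of either list was not tested.

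**Figure D3:**
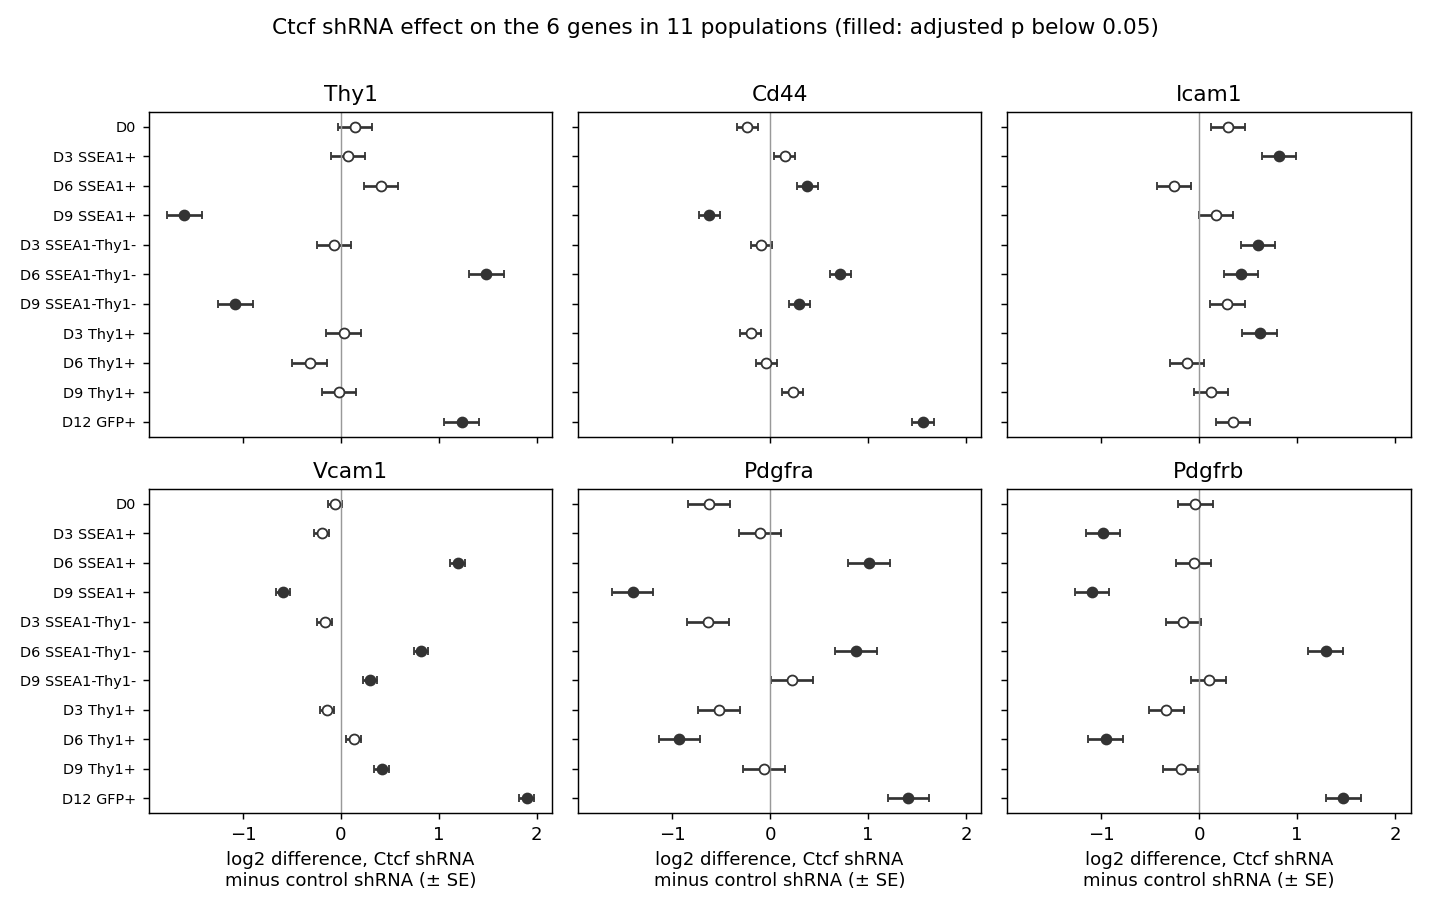
Log2 difference in score, Ctcf shRNA minus control shRNA, for the 6 genes in 11 populations, with SE bars from the limma fit and filled points where the adjusted p was below 0.05. The D12 GFP+ points lie right of 0 for each gene, from 0.34 for Icam1 to 1.90 for Vcam1, and the D9 SSEA1+ points lie left of 0 for all genes but Icam1, at 0.17.

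The remaining populations changed less. In D6 SSEA1+ cells 3 of 6 genes were called higher, against 11.2% of all genes. Vcam1 scored 693 and 773 with Ctcf shRNA against 297 and 344 with control shRNA (1.19 ± 0.07, adjusted p = 7.78e-12), and Pdgfra 18 and 24 against 8 and 12 (1.01 ± 0.21, adjusted p = 0.00108). Cd44 scored 3911 and 3479 against 3114 and 2585 (0.38 ± 0.11, adjusted p = 0.0127). None of the 3 overlapped between the shRNAs, but the Cd44 call was lost without the first Ctcf shRNA library (0.29, adjusted p = 0.117) or the second control library (0.24, adjusted p = 0.216). Fitted with the 4 D6 SSEA1+ libraries alone, neither Pdgfra (adjusted p = 0.246) nor Cd44 (adjusted p = 0.119) was called. Thy1, at 109 and 157 against 81 and 119 (0.41 ± 0.18, adjusted p = 0.0989), overlapped. It was not called, but was without the first Ctcf shRNA library (0.67, adjusted p = 0.0194), without the second control library (0.69, adjusted p = 0.0199) or with a replicate block (adjusted p = 0.0183). The fibroblast markers summed to 10515 to 11901 and 8738 to 9315 in the same order (6 of 10 called higher, 1 lower), and their part was not tested.

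In D6 Thy1+ cells both PDGF receptor genes were lower with Ctcf shRNA, 2 of 6 against 7.56% of all genes. Pdgfra scored 819 and 800 with Ctcf shRNA against 1538 and 1537 with control shRNA (-0.92 ± 0.21, adjusted p = 0.00398), and Pdgfrb 1210 and 1242 against 2352 and 2404 (-0.96 ± 0.18, adjusted p = 0.000511). The fibroblast markers summed to 254431 to 270890 and 324885 to 343171, 4 of 10 called lower, and their part was not tested. In D9 Thy1+ cells Vcam1 was the 1 of 6 called higher (7.51% of all genes), at 8470 and 8710 against 6126 and 6770 (0.42 ± 0.07, adjusted p = 0.000170), though not with the 4 libraries alone (adjusted p = 0.0512).

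In D9 SSEA1-Thy1- cells 3 of 6 genes were called, against 28.0% of all genes. Thy1 scored 1342 and 1510 with Ctcf shRNA against 2825 and 3200 with control shRNA (-1.08 ± 0.18, adjusted p = 6.42e-05). Vcam1 scored 3033 and 3114 against 2499 and 2506 (0.30 ± 0.07, adjusted p = 0.00405), and Cd44 10190 and 10011 against 7839 and 8580 (0.30 ± 0.11, adjusted p = 0.0393). Thy1 thus lay on the other side of 0 from the other 2. The Cd44 call was lost without any 1 of the 4 libraries (adjusted p from 0.0568 to 0.244). The fibroblast markers summed to 211836 to 230731 with Ctcf shRNA and 171037 to 176347 with control shRNA. Of the 10, 3 were called higher and 3 lower (14.6% and 13.4% of all genes), with a median log2 difference of 0.20, and their part was not tested.

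At D3, Icam1 was called in each of the 3 gates and Pdgfrb in 1 of them. Icam1 scored 276 and 300 with Ctcf shRNA against 191 and 184 with control shRNA in Thy1+ cells (0.62 ± 0.17, adjusted p = 0.0428), 1 of 6 genes higher against 1.46% of all genes. It scored 132 and 132 against 88 and 85 in SSEA1-Thy1- cells (0.60 ± 0.17, adjusted p = 0.0409), 1 of 6 against 2.34%. It scored 74 and 73 against 33 and 52 in SSEA1+ cells (0.81 ± 0.17, adjusted p = 0.00350). The 3 pairs of groups did not overlap. Leaving out 1 library lost the call in Thy1+ cells (adjusted p from 0.0947 to 0.223) and SSEA1-Thy1- cells (0.156 to 0.204) whichever library it was, and in SSEA1+ cells without the first control library (0.49, adjusted p = 0.187). Fitted with the 4 libraries of a population alone, Icam1 was called in none of the 3 gates (adjusted p from 0.0824 to 0.221).

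Pdgfrb fell in D3 SSEA1+ cells, at 24 and 33 with Ctcf shRNA against 50 and 64 with control shRNA (-0.98 ± 0.18, adjusted p = 0.000714), so that 2 of 6 genes were called there against 6.78% of all genes. With the 4 libraries alone it was not called (adjusted p = 0.177). Pdgfra in the same cells depended on 1 library: at 13 and 16 with Ctcf shRNA against 10 and 24 with control shRNA, it differed by -0.10 ± 0.21 (adjusted p = 0.871). Without the first control library it differed by -0.70 (adjusted p = 0.0182), and without the second by 0.49 (adjusted p = 0.108). In D3 SSEA1-Thy1- cells Pdgfra scored 83 and 90 with Ctcf shRNA against 128 and 142 with control shRNA, with no overlap (-0.64 ± 0.21, adjusted p = 0.0894). It was called there with a pseudocount of 8 (adjusted p = 0.0221) or quantile normalization (adjusted p = 0.0195).

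The size of the Ctcf shRNA effect differed between populations for 6 of 6 genes in an F test on the 10 differences between populations, which called 56.0% of all genes. The adjusted p was 2.50e-14 for Vcam1, 1.07e-09 for Cd44, 3.63e-09 for Thy1, 1.04e-08 for Pdgfrb, 1.24e-07 for Pdgfra and 0.0152 for Icam1. Averaged over the 11 populations, Vcam1 (0.33 ± 0.02, adjusted p = 2.92e-12), Icam1 (0.30 ± 0.05, adjusted p = 2.86e-05) and Cd44 (0.20 ± 0.03, adjusted p = 1.33e-05) were higher, 3 of 6 against 26.2% of all genes. The means of Thy1 (0.03), Pdgfra (-0.07) and Pdgfrb (-0.09) were not called. That of Pdgfra was called lower without the first control D3 SSEA1+ library (-0.12, adjusted p = 0.0186), and that of Pdgfrb without the second Ctcf shRNA D6 SSEA1+ library (-0.12, adjusted p = 0.0196).

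The effect in SSEA1+ cells was then set against that in Thy1+ cells of the same day. At D3 none of the 6 differed by limma (2 of 6 at an unadjusted p below 0.05, 0.201% of all genes called). Without the second control D3 SSEA1+ library Pdgfra did (1.01, adjusted p = 0.0352). At D6 the effect was higher in SSEA1+ cells for 3 of 6 genes, against 3.21% of all genes: Pdgfra by 1.94 ± 0.30 (adjusted p = 0.000190), Vcam1 by 1.06 ± 0.11 (adjusted p = 2.83e-07) and Pdgfrb by 0.90 ± 0.25 (adjusted p = 0.0312). At D9 it was lower in SSEA1+ cells for 5 of 6, against 9.43% of all genes, by 1.58 for Thy1 (adjusted p = 5.31e-05), 1.34 for Pdgfra (adjusted p = 0.00210), 1.01 for Vcam1 (adjusted p = 1.69e-07), 0.91 for Pdgfrb (adjusted p = 0.0112) and 0.85 for Cd44 (adjusted p = 0.000238). For the same D9 difference of effects 9 of 10 fibroblast markers were lower (median -1.31) and 5 of 8 pluripotency markers higher (median 2.01), against 9.43% lower and 10.3% higher over all genes, and at D6 4 of 10 fibroblast markers were higher (median 0.87). The part of these markers was not tested. Pdgfrb was the least stable: its D6 call was lost in 7 of 8 fits that left out 1 library (adjusted p from 0.0663 to 0.221), and its D9 call without the first Ctcf shRNA or the second control SSEA1+ library (adjusted p = 0.0723 and 0.0530). The D6 difference of Thy1, 0.73 (adjusted p = 0.0891), was called without the second Ctcf shRNA Thy1+ library, the first Ctcf shRNA SSEA1+ library or the second control SSEA1+ library (adjusted p from 0.0233 to 0.0473).

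**Figure D4:**
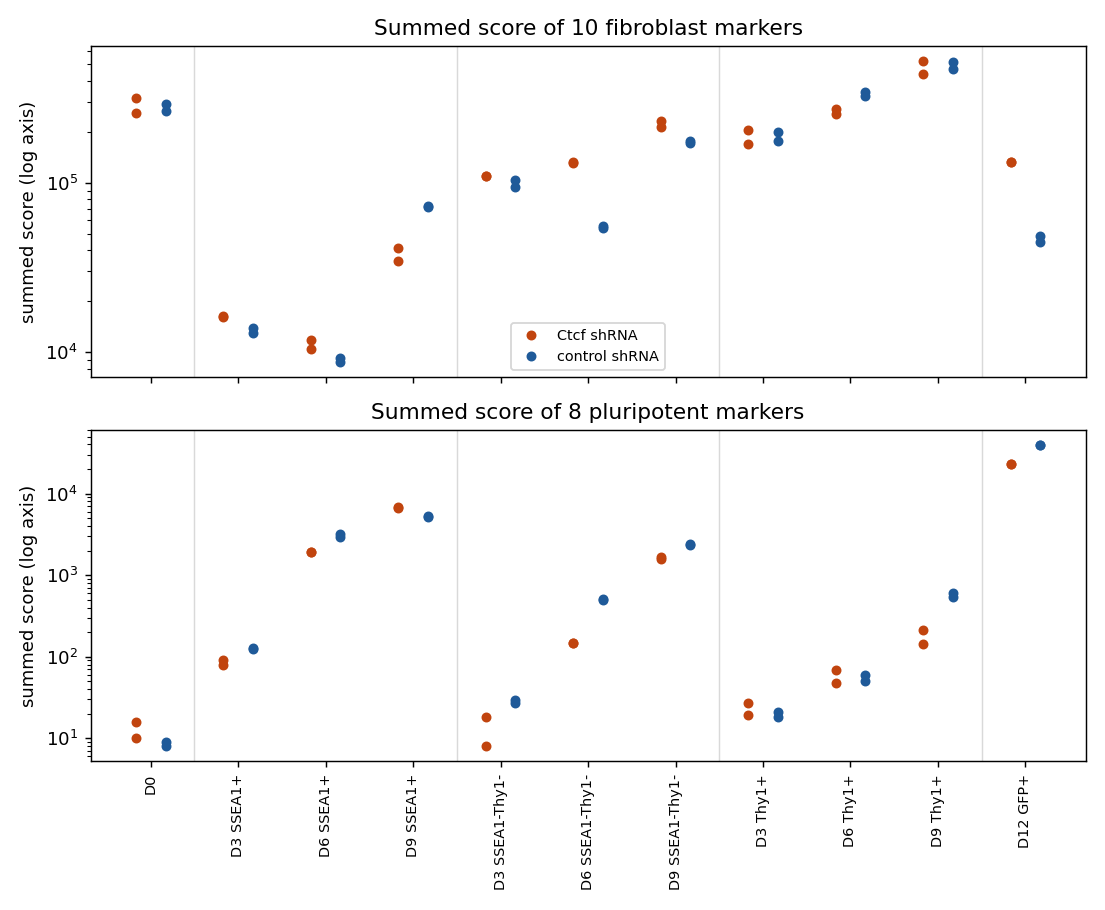
Summed scores (log axis) of 10 fibroblast markers and 8 pluripotency markers in the 11 sorted populations, each point a library, coloured by shRNA. In D12 GFP+ cells the fibroblast sum is 132239 to 133084 with Ctcf shRNA and 44603 to 48340 with control shRNA, and in D9 SSEA1+ cells it is 34443 to 41152 and 72376 to 73226.

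Other genes of the same pathways were read from lists. Of 18 measured NF-kB pathway genes and targets, 13 were higher and none lower with Ctcf shRNA in D12 GFP+ cells, with a median log2 difference of 0.89 against -0.07 over all genes. Of all genes 24.6% were higher and 24.7% lower there. Il6, an inflammatory cytokine, had a mean score of 637.5 with Ctcf shRNA and 132 with control shRNA (2.43), the chemokine Cxcl5 2226 and 658.5 (1.75), and the interleukin 1 receptor Il1r1 differed by 1.68. In D6 SSEA1-Thy1- cells 13 of 18 were again higher and none lower (20.2% and 21.9% of all genes, median 0.66 against -0.04), with Il6 at 486.5 and 196 (1.31). In D9 SSEA1+ cells 8 of 18 were lower and none higher (9.04% and 4.80% of all genes, median -0.26 against 0.02), with Il6 at 49 and 549 (-3.52). Of the members known as NF-kB targets, Vcam1 differed by 1.90, 0.82 and -0.59 in D12 GFP+, D6 SSEA1-Thy1- and D9 SSEA1+ cells and was called in all 3. Icam1 was called in D6 SSEA1-Thy1- cells (0.43, limma adjusted p = 0.04998) and not in the other 2 populations. That call was lost with a pseudocount of 0.5 (adjusted p = 0.0519). Icam1 in D12 GFP+ cells (0.34) was called when the libraries of that population were fitted alone (adjusted p = 0.0177).

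Among 19 genes of PDGF signalling, 8 were higher and 4 lower with Ctcf shRNA in D12 GFP+ cells, where 24.6% of all genes were higher and 24.7% lower (median 0.08 against -0.07 over all genes). The ligand Pdgfb scored 380.0 with Ctcf shRNA and 106 with control shRNA (1.83), the ligand Pdgfc 341.5 and 169 (1.01) and the co-receptor Nrp1 526.5 and 191 (1.46), while the feedback inhibitor Spry1 differed by -0.73. In D6 SSEA1-Thy1- cells 8 were higher and 5 lower (20.2% and 21.9% of all genes, median 0.10), Pdgfc scoring 399 and 160.0 (1.31) and Spry4, another feedback inhibitor, differing by -0.75. In D9 SSEA1+ cells 6 were lower and 1 higher (9.04% and 4.80% of all genes, median -0.08), the ligand Pdgfd scoring 180.0 and 639 (-1.82) and Pdgfb differing by 0.78. The shares of the list called lower in the first 2 populations were near those of all genes.

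Of 15 measured genes of hyaluronan turnover and CD44 partners, 6 were higher and 2 lower with Ctcf shRNA in D12 GFP+ cells (24.6% and 24.7% of all genes, median 0.19). Mmp14, a membrane protease, scored 2340.0 with Ctcf shRNA and 811 with control shRNA (1.53), Cemip, which takes part in hyaluronan breakdown, 456 and 154.5 (1.57), and the hyaluronan synthase Has2 differed by 1.12. In D6 SSEA1-Thy1- cells 6 were higher and 5 lower (20.2% and 21.9% of all genes, median -0.16), with Has2 at 909 and 308.5 (1.56). In D9 SSEA1+ cells 1 was higher and 4 lower (4.80% and 9.04% of all genes, median -0.02), the CD44 ligand Spp1 scoring 1856 and 6143 (-1.73) and Has2 differing by -1.19.

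Of 6 measured leukocyte integrin genes, 2 were higher and 2 lower in D12 GFP+ cells with Ctcf shRNA, counts near the 24.6% and 24.7% of all genes. The 2 higher were Itgb1 and Itga4. Itgb1, a subunit shared by many integrins, scored 16716 with Ctcf shRNA and 6887 with control shRNA (1.28), and Itga4, part of the VCAM1 receptor, differed by 1.07. Of 23 other mesenchymal surface genes, 14 were higher and 2 lower in D12 GFP+ cells (24.6% and 24.7% of all genes, median 0.84), with Alcam at 633 and 179.5 (1.84) and Cspg4, a pericyte proteoglycan, at 452.5 and 139 (1.70). In D6 SSEA1-Thy1- cells 12 were higher and 2 lower (20.2% and 21.9% of all genes, median 0.38), with Cd248, a stromal surface protein, at 1222.5 and 528 (1.21). In D9 SSEA1+ cells 1 was higher and 11 lower (4.80% and 9.04% of all genes, median -0.45), with Cd248 at 344 and 861 (-1.33) and the collagen-binding integrin Itga11 at 14 and 62 (-2.08). The median of each list is a description and no test of the list was made.

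The same lists were counted in SSEA1+ against Thy1+ control cells at D6, where 33.8% of all genes were lower and 42.4% higher. Of the other mesenchymal surface genes 17 of 23 were lower and 3 higher in SSEA1+ cells (median -2.44 against 0.15 over all genes), with Cd248 differing by -5.33. NF-kB genes were lower in 15 of 18 cases and higher in 2 (median -1.82), and PDGF signalling genes in 11 of 19 and 5 (median -0.51), with Nrp1 at 72 in SSEA1+ and 2330.0 in Thy1+ cells (-5.02) and Pdgfb at 211.5 and 37 (2.50). Of 15 hyaluronan genes and CD44 partners 7 were lower and 6 higher (median 0.18), close to the shares of all genes, and of 6 leukocyte integrin genes 3 were lower and none higher (median -0.60). Of 10 measured genes of SSEA1 synthesis and the pluripotent surface 8 were higher and none lower (median 2.97), with the epithelial adhesion gene Epcam at 3568.5 and 119.5 (4.89) and Fut9, which makes the SSEA1 sugar, differing by 3.54. In D9 against D6 SSEA1+ cells 15 of 23 mesenchymal surface genes were higher and 4 lower (22.5% and 27.0% of all genes, median 0.94 against -0.07), as were 11 and 1 of 18 NF-kB genes (median 0.82), with Cxcl1, a chemokine, at 476 and 18.5 (4.92).

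The 6 genes did not share 1 pattern. Across the 22 group means of log2(score + 1) the closest pair was Pdgfra and Pdgfrb (Pearson r = 0.964), and the farthest was Icam1 and Vcam1 (r = 0.224). These are descriptions over means of 2 libraries that share cells of the same days and one normalization. The genes most like each member were sought only among genes with a mean score at or above that of the median gene. Predicted, Rik and clone-type symbols were left out. Among the genes kept, the 3 most like Thy1 were Crabp1 (r = 0.942), Tmem167b (0.940) and Copb2 (0.931). Those most like Cd44 were Crim1 (0.988), Golim4 (0.986) and Arhgap31 (0.984), and those most like Icam1 were Rab5a (0.926), Bach1 (0.922) and Atxn10 (0.921). Vcam1 was nearest to Runx2 (0.970), Vcan (0.959) and Lbh (0.953). Pdgfra was nearest to Plpp3 (0.987), Cd248 (0.982) and Mrc2 (0.982), and Pdgfrb to Serpinf1 (0.988), Bgn (0.987) and Mxra8 (0.985).

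At D10, CTCF overexpression gave no called difference in the 4 genes measured. The oecontrol libraries differed from each other far less than other library pairs and were counted as 1 sample, and no spread between controls could be estimated. Ctcf scored 5110 and 6132 with oeCTCF and 7225 and 5205 with oeCTCF&shSmarca5, against 1262 and 1234 with oecontrol, and Smarca5 6387 and 6650 with oeCTCF&shSmarca5, against 13818 and 13283 with oeCTCF. Cd44 scored 4870 and 6287 with oeCTCF and 5486 and 5766 with oeCTCF&shSmarca5, against 6883 and 6724 with oecontrol, and both constructs lay below the controls. Icam1 scored 136 and 188, then 118 and 200, against 98 and 101 in the same order, above the controls throughout. Thy1 scored 226 and 223, then 152 and 234, against 277 and 291, and Vcam1 556 and 812, then 572 and 806, against 698 and 679. Vcam1 alone overlapped between the constructs and the controls.

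For oeCTCF against oecontrol the log2 differences were -0.30 ± 0.18 for Cd44 (adjusted p = 0.933), 0.68 ± 0.40 for Icam1 (adjusted p = 0.926), -0.34 ± 0.29 for Thy1 (adjusted p = 0.987) and -0.04 for Vcam1 (adjusted p = 0.996). limma called 0 of 4, none had an unadjusted p below 0.05, and of all genes 0.0387% were called and 783 of 12915 had an unadjusted p below 0.05. For oeCTCF&shSmarca5 against oecontrol the differences were -0.27, 0.62, -0.59 and -0.02 in the same order of genes, with 0 of 4 called or at an unadjusted p below 0.05 (0.0387% of all genes called, 558 at an unadjusted p below 0.05). For oeCTCF&shSmarca5 against oeCTCF they were 0.02, -0.06, -0.25 and 0.02, likewise with 0 of 4 by either count (0.00% of all genes called, 180 at an unadjusted p below 0.05). The fits had 2 residual degrees of freedom, so only large differences could be called.

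The authors' own 2 comparison tables cover D10 for all 6 genes but do not name which mean belongs to which condition, so directions are read from Ctcf in the same table. In the authors' deposited table for Ctcf shRNA, the condition with less Ctcf (1730.3 against 2197) had more Thy1 (845.7 against 702.9, log2 ratio 0.27, authors' p = 0.0274) and more Cd44 (13292 against 12695, 0.07, authors' p = 0.0204). The other 4 genes in the authors' deposited table had log2 ratios from -0.18 for Icam1 (authors' p = 0.355) to -0.01 for Pdgfrb (authors' p = 0.985), and 11.7% of all its genes had a p below 0.05. In the authors' deposited table for CTCF overexpression, the condition with more Ctcf (10177 against 2039) had 291.7 for Icam1 against 174 (0.74, authors' p = 0.0940). The other 5 genes in the authors' deposited table had log2 ratios from -0.27 for Cd44 to 0.05 for Vcam1 with p from 0.392 to 0.991, and 2.35% of all its genes had a p below 0.05.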

How the data were processed

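RNA was extracted with TRIzol and sequenced from NEBNext Ultra libraries, per the labels' protocols. The tools listed are Trim Galore, FastQC and RSEM, and the builds are GRCm38 for 54 samples and mm9 for 2, per the submitters' processing notes. Versions, strand setting and the normalization are not given in the sources used here. The deposited score columns of the sorted and day 10 tables are whole numbers that the authors had normalized. This was read from their nearly equal totals over all rows and, in the sorted table, from identical high scores in different libraries. Raw counts stand in the deposited iPSC and MEF table. The authors' deposited comparison tables hold condition means (scores), a log2 ratio and a p-value, with no header and an adjustment that is not stated. Of 56 samples, 4 day 10 shRNA samples were not analysed here as libraries.

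Scores were tested as log2(score + 1) with limma 3.58.1 in R 4.3.3, with a trended prior and 1 coefficient per group. Fold changes on this scale understate the change of low genes. The 44 sorted libraries shared 1 fit (residual degrees of freedom 22). In the day 10 fit the 2 oecontrol columns were averaged, because their median squared difference over sum was 0.148, against 0.746 or more in other pairs, and 2 degrees of freedom remained. The filter was a score of 10 or more in 2 libraries, which left 13451 of 13451 and 12915 of 12935, and Benjamini-Hochberg adjustment ran over all of them. The 819 and 933 rows that are repeats were left out. Counts were compared as CPM, scaled to each library's total, with a pseudocount of 1, in R. Python 3.11.15 was used for the coordinates, the promoter search and the figures. The limma fit was first run on simulated data for a sorted-cell contrast and a day 10 contrast. Limits on recovery and false calls were set for the sorted-cell contrast only. Replicate numbers were not used to pair libraries, and the labels do not say whether equal numbers share a culture. Between the 2 shRNAs of a population, deviations of equal numbers correlated from -0.117 to 0.300 over 11 populations, which does not decide it. Gates of the same day were not checked in this way.

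The 6 genes and the lists were chosen with earlier results of these data known. Besides the 6 genes, Ctcf and Smarca5 were named as checks, the 3 genes of highest Pearson r with each member by rule, and from each list called genes of largest change, up to 4 each way; Icam1 is set beside the NF-kB list because it is a known target. Markers of endothelial cells summed to 451 to 1680 in all libraries. Promoters and motifs came from RefSeq.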

Additional observations from a re-analysis of the deposited data

Results flagged for a closer look

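The effect of Ctcf shRNA on each gene differed between the 11 sorted populations in limma's F test, which called 56.0% of all genes. The adjusted p was 3.63e-09 for Thy1, 1.07e-09 for Cd44, 0.0152 for Icam1, 2.50e-14 for Vcam1, 1.24e-07 for Pdgfra and 1.04e-08 for Pdgfrb.

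The effect also differed between gates of the same day when that difference itself was tested, as the log2 effect in SSEA1+ cells minus that in Thy1+ cells. At D6 it was 1.94 for Pdgfra, 1.06 for Vcam1 and 0.90 for Pdgfrb, 3 of 6 called higher against 3.21% of all genes. At D9 it was -1.58 for Thy1, -1.34 for Pdgfra, -1.01 for Vcam1, -0.91 for Pdgfrb and -0.85 for Cd44. These were 5 of 6 genes called lower, against 9.43% of all genes. Pdgfra, Vcam1 and Pdgfrb thus had the opposite sign at D6 and D9. The D6 difference of Pdgfrb was unstable: it was 0.50 without the second Ctcf shRNA SSEA1+ library. With only the groups compared in the limma fit it was not called (adjusted p = 0.204). In D6 SSEA1+ cells Pdgfrb overlapped between the shRNAs, at 34 and 60 with Ctcf shRNA against 48 and 46, and Pdgfra there rests on scores of 24 or less.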

How the results depend on the processing

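No count of calls moved by over 1.5 times and no called direction turned under another pseudocount, filter, normalization or fit, or without 1 library. The 29 Ctcf shRNA calls became 28 to 29 without 1 library and 22 to 31 under the other settings, 22 where only the libraries compared were fitted. The 8 calls of SSEA1+ minus Thy1+ effects became 7 to 9 both ways, the 48 against D0 47 to 48 and 47 to 49, the 26 day steps 24 to 26 and 26 to 27, and the 13 of SSEA1+ against SSEA1-Thy1- cells 13 and 13 to 15. The 3 mean effects became 3 to 4 and 3. The 15 of each gate against Thy1+ cells, the 5 of D12 against D9, the 6 F tests and the 0 of each day 10 comparison did not move. The 4 genes past 8-fold between iPSCs and MEFs became 4 to 5. A fit left with 1 library in a group assumes that it varies like the other groups.

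Replicate numbers were not treated as pairs in the main fit, and a replicate block gave 31 Ctcf shRNA calls in place of 29. It added calls for Pdgfra at D0 (adjusted p = 0.0475), Thy1 in D6 SSEA1+ cells (adjusted p = 0.0183) and in SSEA1+ minus Thy1+ cells at D6 (adjusted p = 0.0117), and Icam1 in D9 SSEA1+ against SSEA1-Thy1- cells (adjusted p = 0.0434). A block with both oecontrol columns kept, chosen after seeing the data, left 0 calls at day 10. Depth is unknown for scores, and scores of 24 or less carry the lowest Pdgfra levels.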
